A study of Gallus gallus with 10 samples.

Results

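The 8 genes described here mark neural progenitors and radial glia: SOX2, SOX3, DLL1, NOTCH1, HES5, VIM, NES and FABP7. They were chosen by name, as known progenitor and radial glia genes, and their members were all probe sets that the platform annotation assigns to them. That gave 14 probe sets out of 38439, and 8 genes out of 13051 with a single gene name. Each of SOX2, SOX3, VIM, NES and FABP7 had 1 probe set, DLL1 and HES5 had 2 each, and NOTCH1 had 5. The material was total RNA from dissected whole brains of embryonic chickens, hybridised to 10 Affymetrix arrays, 5 labelled male and 5 labelled female. The labels do not state the embryos' age, their breed or how many animals made up a sample, and they name no treatment other than dissection. They also do not say that samples were separate embryos, so each p-value below reflects sample to sample spread that can include technical error.

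Radial glia are the elongated progenitor cells that line the ventricles of the embryonic brain and divide to give neurons and later glia. SOX2 and SOX3 are related transcription factors that hold cells in the progenitor state. In Notch signalling, the ligand DLL1 on a cell that is becoming a neuron activates the receptor NOTCH1 on its neighbour, and the cleaved receptor switches on repressors such as HES5, which keep that neighbour a progenitor. VIM and NES are intermediate filament proteins of the radial glial fibre, and FABP7 is a fatty acid binding protein of radial glia. In the assembly bGalGal1.mat.broiler.GRCg7b the genes lie on autosomes: VIM on chromosome 2, DLL1 and FABP7 on 3, SOX3 on 4, SOX2 on 9, NOTCH1 on 17, HES5 on 21 and NES on 25. Birds are ZZ in males and ZW in females, so none of the 8 differs in copy number between the sexes by its chromosome.

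Levels below are log2(intensity + 16), where the intensity is the deposited value per probe set, and differences are male minus female on that scale. Levels of different probe sets are not set against each other, since probes bind with different strength. Because whole brain was used, fewer cells of a type and less RNA per cell cannot be told apart. The arrays were alike: the median intensity per array ran from 592 to 720 and pairwise correlations of log2 values, across probe sets, from 0.918 to 0.946. The 687 virus probe sets that carry no chicken gene name served as background, and their 95th percentile per array lay between 7.69 and 8.73. Male replicate 1 had the lowest virus median, 5.41, against 5.93 to 6.17 on the other male arrays and 5.69 to 6.32 on the female arrays. By this measure 10 of the 14 probe sets, at least 1 for each of the 8 genes, were above background on all 10 arrays. The other 4 were NOTCH1 probe sets. The share of all probe sets above background on all 10 arrays is not given here. Levels over background were common, as 9287 of all 13051 genes had a mean level at or above 9.33, over the background of every array. Of 16 measured neuron genes, 15 were above the background level on average. The same held for 10 of 10 vessel genes, 9 of 10 mesenchyme genes and 5 of 7 eye genes, so the count does not single out neurons.

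No progenitor gene passed the test for a sex difference. In limma, 0 of 14 probe sets passed in the male direction and 0 in the female direction, after a Benjamini-Hochberg adjustment that covered all 38439 probe sets. Of all probe sets, 0.643% passed in the male direction and 0.156% in the female direction. At an unadjusted p under 0.05 the count was also 0 of 14, where 6.85% of all probe sets reached that level, a share under which a count of 0 among 14 says little. The lowest adjusted p among them in limma was 0.738. With 1 probe set per gene and adjustment over all genes, 0 of 8 genes were called, where 1.59% of all genes passed as higher in males and 0.207% as higher in females. The differences of the 8 genes, each by its brightest probe set, ran from -0.15 for NES to 0.04 for SOX3, with a median of -0.03, and 7 of 8 were below 0. The median over all genes was -0.02, and 44.4% of all genes were above 0. No member probe set separated the sexes completely. Every male exceeded every female in 1.47% of all probe sets, and every female exceeded every male in 0.819%. The shares over all probe sets and all genes, here and below, include genes on Z. They are therefore not shares for autosomal genes such as the 8 members.

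**Figure D1:**
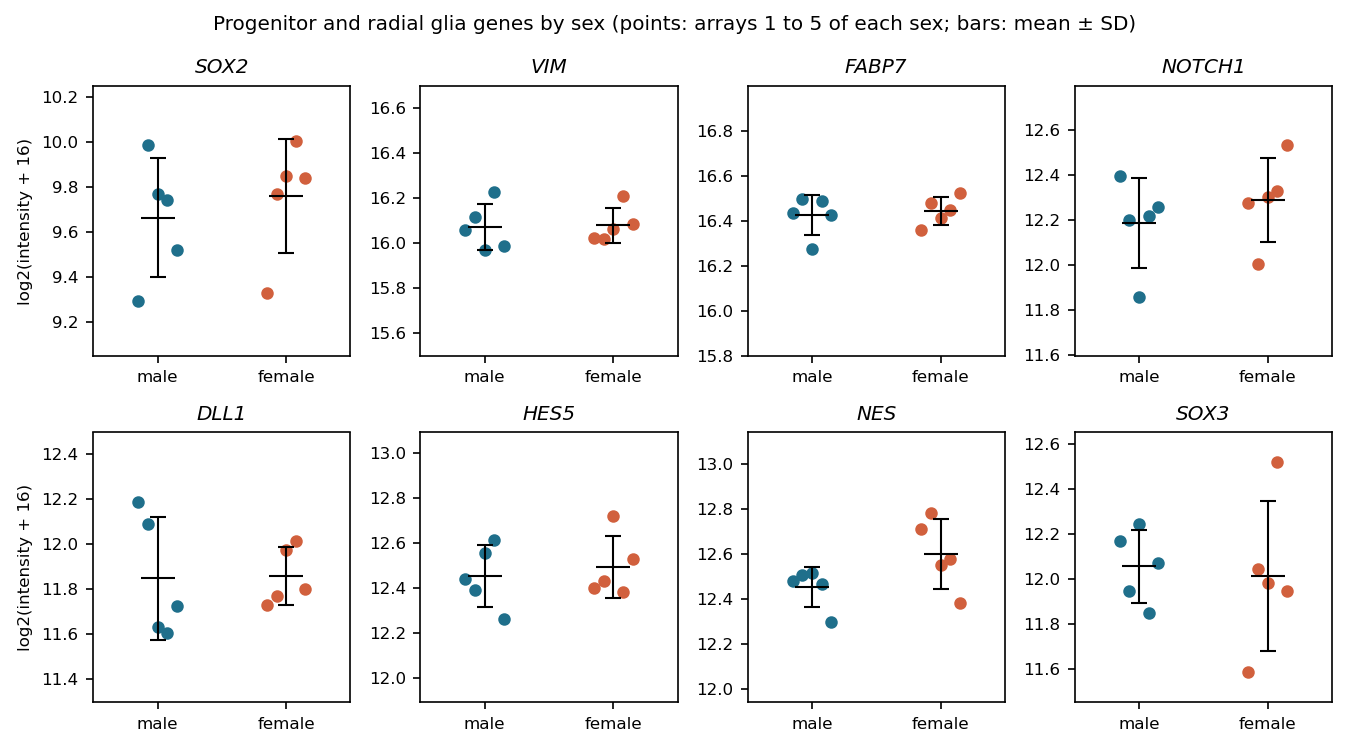
Level, as log2(intensity + 16), of the brightest probe set of each of the 8 genes, with male arrays on the left and female arrays on the right. Points are single arrays and bars are mean ± SD over 5 arrays per sex; each panel spans the same height on the log2 scale, and the sexes overlap in all 8 panels.

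Of the transcription factors, SOX2 had levels of 9.29, 9.99, 9.77, 9.74 and 9.52 on the male arrays, against 9.33, 9.77, 9.85, 10.01 and 9.84 on the female arrays. Male replicate 1 and female replicate 1 were the lowest arrays of their sex, and the sexes overlapped over most of their range. SOX2 averaged 9.66 ± 0.26 in males and 9.76 ± 0.25 in females (SD over 5 arrays of each sex), and its male minus female difference was -0.10 (SE 0.17, adjusted p = 0.964 in limma). The 95% interval of the male to female ratio was 0.723 to 1.21. SOX3 had levels of 12.17, 11.94, 12.24, 11.85 and 12.07 in males, against 11.58, 12.04, 11.98, 12.52 and 11.95 in females. The highest and the lowest of the 10 arrays for SOX3 were both female, so the males lay inside the female range. SOX3 averaged 12.05 ± 0.16 in males and 12.01 ± 0.33 in females (SD over 5 arrays of each sex), and its male minus female difference was 0.04 (SE 0.17, adjusted p = 0.987 in limma), with a ratio interval of 0.794 to 1.33. Female replicate 4 was the highest array for both SOX genes. Female replicate 1 was the lowest for SOX3 and the second lowest for SOX2.

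The Notch ligand DLL1 was measured by a pair of probe sets. The brighter had levels of 12.19, 12.09, 11.63, 11.61 and 11.73 in males, against 11.73, 11.77, 11.98, 12.02 and 11.80 in females. Male replicates 1 and 2 stood above every female, and the other males lay at or below the female minimum of 11.73. The difference was -0.01 (SE 0.14, limma adjusted p = 0.996), with a ratio interval of 0.798 to 1.24. The dimmer had levels of 10.14, 10.73, 10.55, 10.79 and 10.36 in males, against 10.84, 10.86, 10.42, 10.53 and 10.54 in females. Male replicate 1 was the lowest array here and the highest in the brighter probe set. The difference was -0.12 (SE 0.15, limma adjusted p = 0.941).

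The receptor NOTCH1 was above background on all arrays in 1 of its 5 probe sets. That probe set had levels of 12.40, 12.20, 11.86, 12.22 and 12.26 in males, against 12.27, 12.01, 12.30, 12.33 and 12.53 in females. Male replicate 3 was the lowest array and female replicate 5 the highest, and the remaining arrays overlapped. NOTCH1 averaged 12.19 ± 0.20 in males and 12.29 ± 0.19 in females (SD over 5 arrays of each sex), and its male minus female difference was -0.10 (SE 0.13, adjusted p = 0.943 in limma), with a ratio interval of 0.760 to 1.14. The other 4 probe sets differed by 0.34 (SE 0.31), -0.44 (SE 0.48), 0.28 (SE 0.65) and -0.47 (SE 0.21), in order of falling brightness. Of these, the brighter pair exceeded background on 5 of 10 arrays each and the dimmer pair on 0, so their differences carry no reliable size. The last had the lowest p of any member (limma unadjusted p = 0.0545, adjusted p = 0.738), at mean levels of 5.48 in males and 5.94 in females, close to the virus medians.

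HES5, a repressor gene switched on by Notch, had levels of 12.44, 12.39, 12.56, 12.62 and 12.26 in males, against 12.40, 12.43, 12.72, 12.39 and 12.53 in females. Male replicate 5 was the lowest array and female replicate 3 the highest, with the others interleaved. HES5 averaged 12.46 ± 0.14 in males and 12.50 ± 0.14 in females (SD over 5 arrays of each sex), and its male minus female difference was -0.04 (SE 0.10, adjusted p = 0.977 in limma), with a ratio interval of 0.827 to 1.14. Its dimmer probe set ran from 11.65 to 11.90 in males and from 11.56 to 11.92 in females, and differed by 0.03 (SE 0.09, limma adjusted p = 0.982).

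Among the filament genes, VIM had levels of 16.06, 16.11, 15.97, 16.22 and 15.99 in males, against 16.02, 16.02, 16.06, 16.21 and 16.08 in females. Male replicate 4 and female replicate 4 were the high arrays, and the rest lay close together. VIM averaged 16.07 ± 0.10 in males and 16.08 ± 0.08 in females (SD over 5 arrays of each sex), and its male minus female difference was -0.01 (SE 0.08, adjusted p = 0.995 in limma), with a ratio interval of 0.872 to 1.14. NES, listed in the reference also under the name paranemin, had levels of 12.48, 12.51, 12.52, 12.47 and 12.30 in males, against 12.71, 12.79, 12.55, 12.58 and 12.38 in females. In NES 4 of 5 females stood above every male, and female replicate 5 stood below 4 of the males. NES averaged 12.45 ± 0.09 in males and 12.60 ± 0.16 in females (SD over 5 arrays of each sex), and its male minus female difference was -0.15 (SE 0.10, adjusted p = 0.864 in limma) that did not pass. Its ratio interval was 0.773 to 1.05.

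FABP7 had levels of 16.43, 16.50, 16.28, 16.49 and 16.43 in males, against 16.36, 16.48, 16.41, 16.45 and 16.52 in females. Male replicate 3 was the lowest array and the remaining 9 spanned a narrow range. FABP7 averaged 16.42 ± 0.09 in males and 16.44 ± 0.06 in females (SD over 5 arrays of each sex), and its male minus female difference was -0.02 (SE 0.08, adjusted p = 0.987 in limma), with a ratio interval of 0.872 to 1.12.

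**Figure D2:**
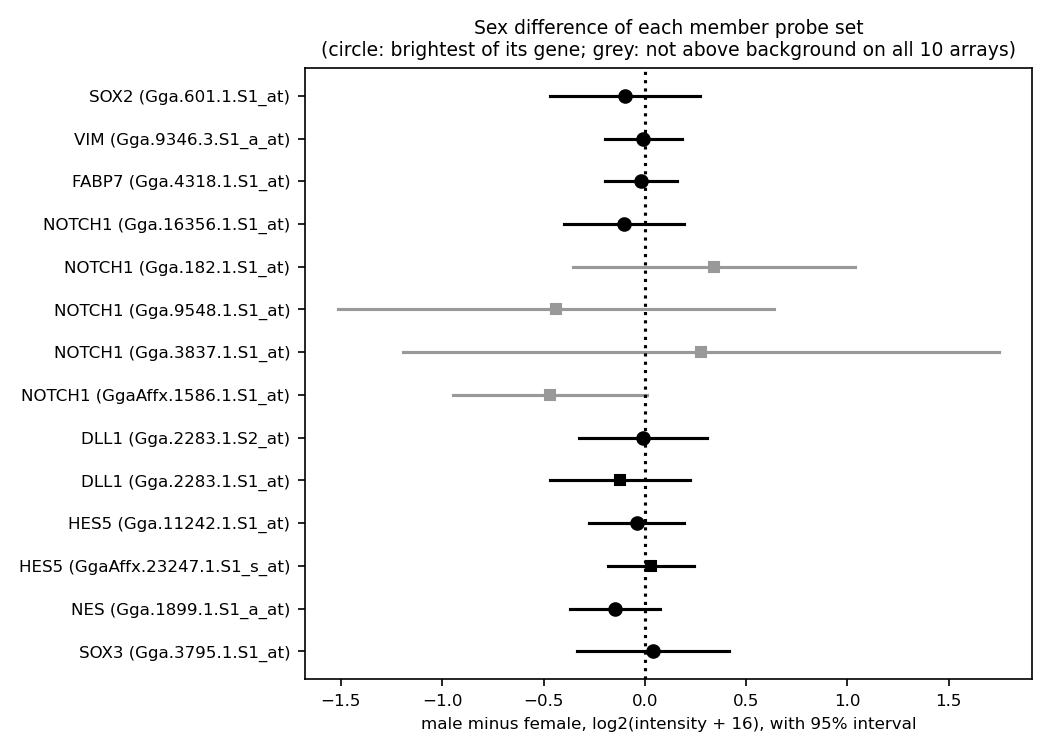
Male minus female difference of each of the 14 probe sets on the log2(intensity + 16) scale, with the 95% interval from limma. Circles mark the brightest probe set of a gene and grey marks the 4 NOTCH1 probe sets that were not above background on all 10 arrays; every interval includes 0.

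The members differed in how tightly the 10 arrays held them. The residual SD within sex was 0.08 for FABP7 and 0.09 for VIM, 0.13 for NES and 0.14 for HES5, and 0.19 for NOTCH1, 0.21 for DLL1 and 0.26 for both SOX2 and SOX3. The median residual SD was 0.17 over the 9287 genes with a mean level at or above the median of all probe sets. Over all 13051 genes it was 0.23, so brighter genes spread less. Among the probe sets used for the 8 genes, those of FABP7 and VIM were the brightest and that of SOX2 the dimmest. The part of signal strength in the members' spread was not tested. From the lowest to the highest array, FABP7 spanned a factor of 1.19, SOX2 of 1.64 and SOX3 of 1.91. The intervals above depend on this spread and, through the moderated SE of limma, on that of all probe sets. For VIM and FABP7 they leave out male to female ratios of measured intensity under 0.872 and over 1.14. For SOX3 a ratio as high as 1.33 and for SOX2 one as low as 0.723 lay inside. In the fit with 1 probe set per gene, the log2 intervals were narrower for VIM (-0.16 to 0.15) and FABP7 (-0.16 to 0.12). In the fit of all probe sets they were -0.20 to 0.18 and -0.20 to 0.16.

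Levels of the 8 genes did not move together from array to array by a test of each pair. After centring each gene within each sex, Pearson's r of the 28 pairs ran from -0.68 to 0.57 with a median of 0.02, and 14 pairs were positive and 14 negative. With an exact permutation test within sexes, two-sided over 14400 arrangements, 0 of 28 pairs passed after Benjamini-Hochberg adjustment by Pearson's r or by Spearman's rho, and 1 pair had an unadjusted p under 0.05 by either. That pair was NOTCH1 and NES (r = -0.68, exact p = 0.0323, adjusted p = 0.904; rho = -0.76, exact p = 0.0226, adjusted p = 0.632; n = 10 arrays). Without the 2 arrays farthest from the median of NOTCH1, r was -0.59. It was -0.22 when each gene was the mean of its probe sets, the dim NOTCH1 ones included, and -0.39 without centring within sex. Female replicate 5 was the highest array for NOTCH1 and the second lowest for NES, and female replicate 2 was the highest for NES and the second lowest for NOTCH1.

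Within the Notch route, the ligand DLL1 and the receptor NOTCH1 had r = 0.46 (exact p = 0.235, adjusted p = 0.942) and rho = 0.43 (exact p = 0.243). The receptor and the target HES5 had r = -0.09 (exact p = 0.805, adjusted p = 0.942) and rho = -0.19 (exact p = 0.627). DLL1 and HES5 had r = -0.14 (exact p = 0.724, adjusted p = 0.942) and rho = -0.19 (exact p = 0.643). Without the 2 arrays farthest from the median of NOTCH1, its r was 0.22 with DLL1 and 0.01 with HES5. Without the 2 arrays farthest from the median of DLL1, r of DLL1 and HES5 was 0.01. SOX2 and SOX3 had r = 0.41 (exact p = 0.259, adjusted p = 0.942) and rho = 0.26 (exact p = 0.492), and r was 0.22 without the 2 arrays farthest from the median of SOX2. The filament VIM and the radial glial gene FABP7 had the highest r of the 28, 0.57 (exact p = 0.124, adjusted p = 0.942; rho = 0.65, exact p = 0.0639), and r was 0.73 without the 2 arrays farthest from the median of VIM. With 10 arrays these tests leave wide room, so the pairs that did not pass are not shown to be unrelated.

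**Figure D3:**
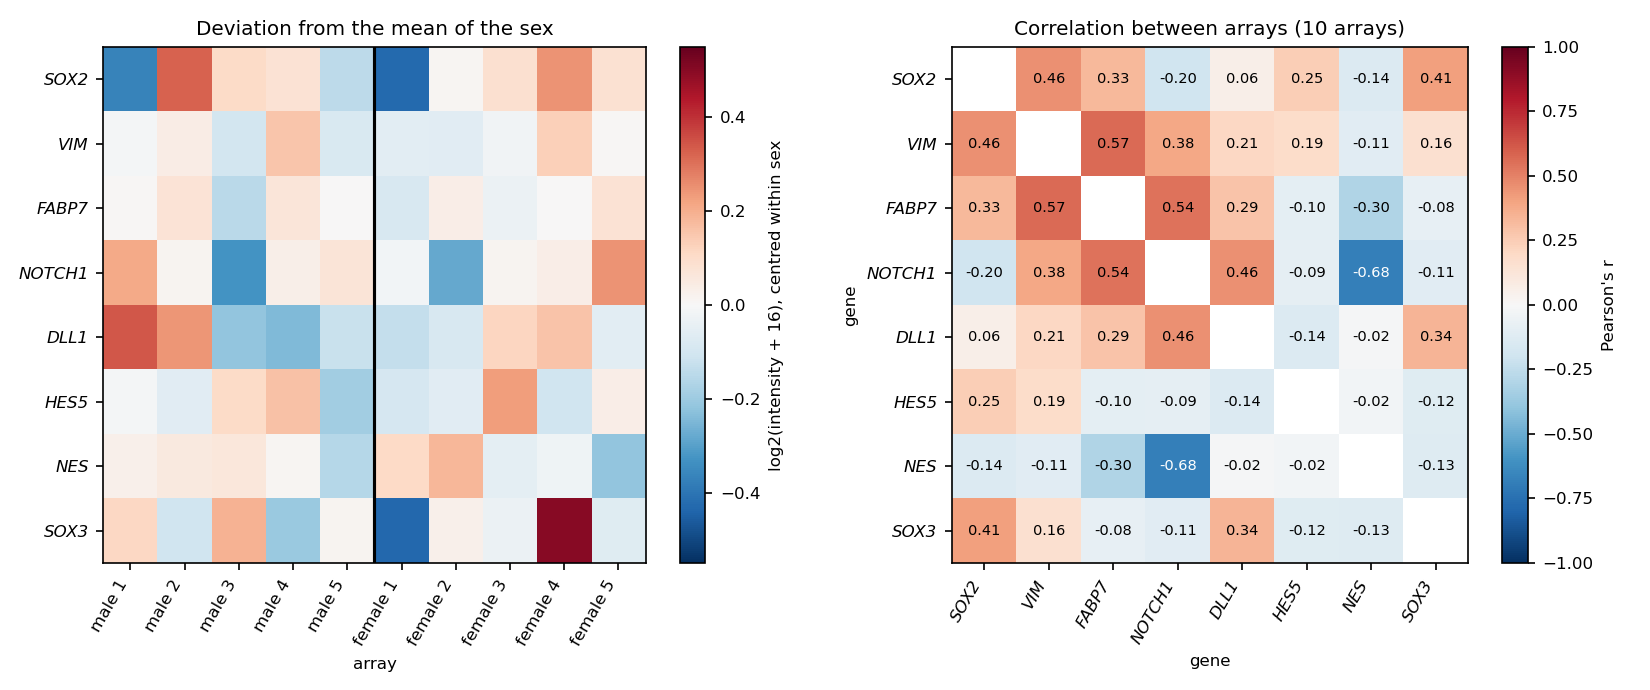
Left, the level of each gene on each array minus the mean of that sex, on the log2(intensity + 16) scale, with male arrays to the left of the line. Right, Pearson's r of each pair of genes over the 10 arrays after centring within sex; the strongest is -0.68 for NOTCH1 and NES.

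Probe sets of the same gene were set against each other in the same way, as a check on how far a single probe set speaks for its gene. The 2 HES5 probe sets had r = 0.71 (exact permutation p = 0.0383, adjusted p = 0.46 over 12 same-gene pairs) and rho = 0.75 (exact p = 0.0284, adjusted p = 0.341), and r was 0.34 without the 2 arrays farthest from the median of the brighter one. The 2 DLL1 probe sets had r = -0.53 (exact permutation p = 0.194, adjusted p = 0.581) and rho = -0.54 (exact p = 0.187). Without the 2 arrays farthest from the median of the brighter DLL1 probe set, r was -0.79. Any pattern of DLL1 across arrays therefore depends on which probe set is read. The brightest NOTCH1 probe set had r = -0.42, 0.17, 0.06 and -0.14 with the other 4, in order of falling brightness. Their exact permutation p ran from 0.259 to 0.879. Those 4 were not above background on all 10 arrays, so they are a weak check, and no other probe set backs the NOTCH1 pattern.

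For each member, the genes most like it were sought among 9279 genes with a level at or above the median, by Pearson's r of sex-centred levels over the 10 arrays. With so many genes and 10 arrays, high values arise in any case, and these names are a description with no test. For VIM they were SERPINF1, a secreted serpin (r = 0.95), DENR, a translation factor gene (r = 0.94), and COL1A2, a chain of type I collagen (r = 0.93). For NOTCH1 they were HDAC9 (r = 0.97), HSP90AA1 (r = 0.94) and POLR1A (r = 0.94). For HES5 they were SYNDIG1L (r = 0.96), UBE2QL1 (r = 0.94) and GIGYF2 (r = 0.92), and for DLL1 ADAL (r = 0.94), ARMC1 (r = 0.93) and SMTNL2 (r = 0.92). SOX3 was closest to NPAT (r = 0.96), POU2F1 (r = 0.93) and FAM3C (r = 0.91), and SOX2 to MSL1 (r = 0.92), LOC424588 (r = 0.90) and ALAS1 (r = 0.88). NES was closest to RCAN2, LOC101747780 and PHF20L1 (each r = 0.93), and FABP7 to APBA2 (r = 0.94), GPI (r = 0.90) and SEC61A1 (r = 0.90). No gene appeared under more than 1 member.

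VIM is also made by mesenchymal cells, and its array pattern lay close to that of meningeal and mesenchymal markers, an observation made after its most similar genes were seen. VIM had r = 0.93 with COL1A2, 0.89 with the matrix proteoglycan gene DCN, 0.88 with COL1A1, 0.79 with LUM, 0.74 with COL3A1 and 0.63 with FOXC2. With TWIST1, PDGFRB, ACTA2 and FOXC1 it had r = 0.42, 0.21, 0.03 and -0.04. The median over these 10 genes was 0.68, and 0.63 over 9 without COL1A2, the gene that prompted the look. The median r of VIM over 9279 genes was 0.02. Since the list was looked at for this reason, these values are a description with no test. For the other 7 members the median r with the mesenchyme list lay between -0.12 for NES and 0.39 for FABP7. This list also had the highest median r of the other gene lists for FABP7, SOX2 (0.36) and NOTCH1 (0.34). Of its 10 genes, 10, 7 and 9 had a positive r with these 3 members, and 9 with VIM, so the likeness is not particular to VIM. The median deviation of the 10 markers from their means was 0.00, 0.09, -0.23, 0.25 and -0.23 on the male arrays and 0.08, -0.14, -0.02, 0.32 and 0.06 on the female arrays. Male replicate 4 and female replicate 4, the high arrays for VIM, were the highest of their sex for these markers too. Both arrays carry the same title letter, though nothing states that letters pair samples. The labels do not say whether meninges stayed on the dissected brains, and the part of such cells in the VIM level was not tested.

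**Figure D4:**
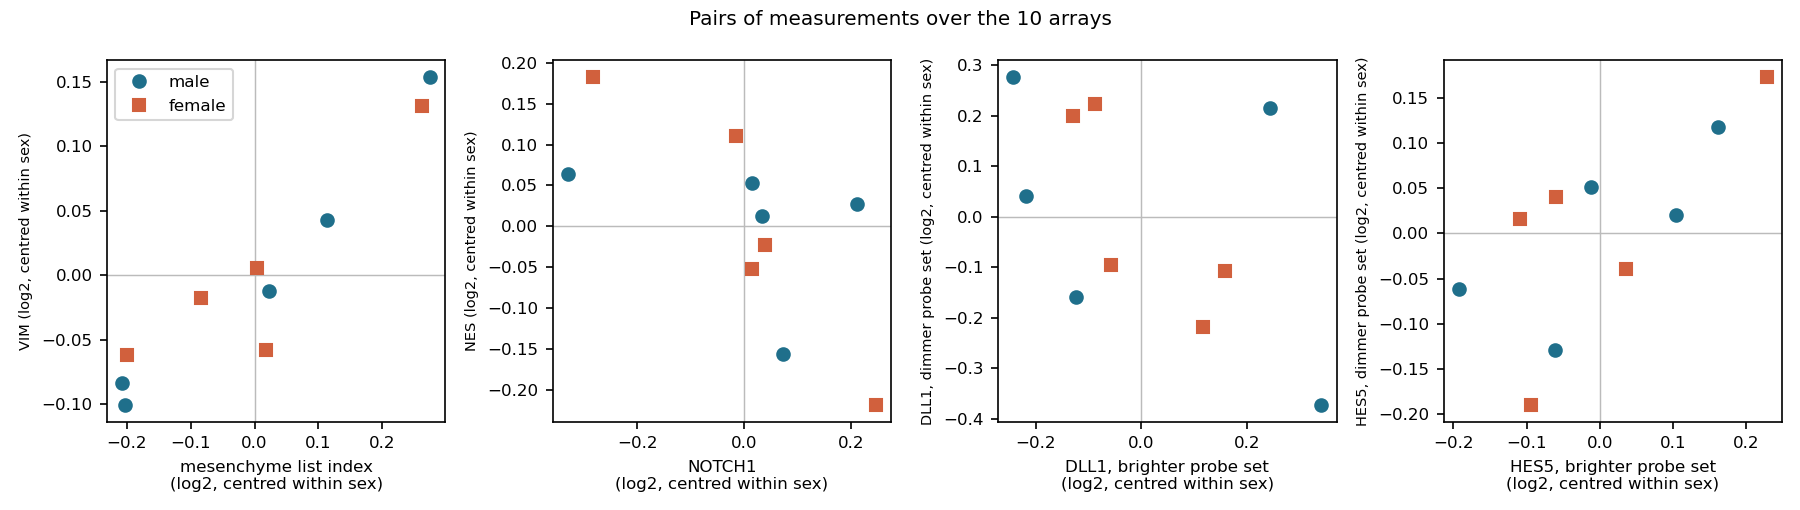
Pairs of measurements over the 10 arrays, each on the log2(intensity + 16) scale and centred within sex, with male arrays as circles and female arrays as squares. From left to right, VIM against the median deviation of 10 mesenchyme markers, NES against NOTCH1, the 2 DLL1 probe sets and the 2 HES5 probe sets; Pearson's r was -0.68 for NOTCH1 and NES, -0.53 for the DLL1 probe sets and 0.71 for the HES5 probe sets, and none of these passed after adjustment.

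No other gene of the Notch pathway passed the test for a sex difference. Of 38 listed genes 30 were measured, and 0 were called in either direction in limma with adjustment over all genes, with 3 at an unadjusted p under 0.05, a level that 7.62% of all genes reached. Their median difference was -0.02, as over all genes. Among 4 other ligand or Delta-like genes, DLK1 included, the differences ran from -0.08 for JAG2 to 0.47 for DLL4. Among 5 genes, those of the HES and HEY families and NRARP, they ran from -0.84 for HEY2 to 0.02 for HES6. The largest of these sizes came from dim genes, with mean levels of 8.08 in males and 8.92 in females for HEY2, and an SE of 0.69. The receptor gene NOTCH2 had the lowest p of the list, with mean levels of 12.91 ± 0.05 in males and 13.08 ± 0.05 in females (SD over 5 arrays of each sex), and its male minus female difference was -0.17 (SE 0.05, adjusted p = 0.293 in limma). Every female exceeded every male in NOTCH2, an order found in 0.736% of all genes, but the difference did not pass. DLK1, a Delta-like membrane protein gene, came next, at 13.59 in males and 13.42 in females, a difference of 0.17 (SE 0.06, limma adjusted p = 0.39). Every male exceeded every female in DLK1, an order found in 2.15% of all genes.

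Of 32 listed progenitor and radial glia genes other than the 8 described, 28 were measured. Of these 0 were called in limma, with 3 at an unadjusted p under 0.05, a level that 7.62% of all genes reached. NOTCH2 is on this list and on the Notch list and is 1 of the 3 in each, so the 2 lists together hold 57 distinct measured genes and 5 at that level. The differences of the 28 genes had a median of 0.01, and 18 of 28 were above 0, where 44.4% of all genes were. LRIG1, a membrane protein gene that restrains growth factor receptors, had the lowest p, at 11.42 ± 0.08 in males and 11.65 ± 0.10 in females (SD over 5 arrays of each sex), and its male minus female difference was -0.23 (SE 0.07, adjusted p = 0.258 in limma). Every female exceeded every male in LRIG1, an order found in 0.736% of all genes. SOX1, the remaining gene of the SOX2 and SOX3 group and named here for that reason after its value was seen, differed by -0.40 (SE 0.20, limma adjusted p = 0.722). SLC1A3, a glutamate transporter gene of radial glia and the only gene of this list on Z, differed by 0.10 (SE 0.13, limma adjusted p = 0.922).

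Lists of other cell types that whole brain can hold, and of proliferation genes, were checked beside the members. Of all genes, 7.62% had an unadjusted p under 0.05 in limma. Of 15 proliferation genes, 16 neuron genes and 6 astrocyte genes, 0 were called in limma, with 0, 0 and 1 at an unadjusted p under 0.05, and their median differences were 0.06, 0.02 and 0.03. Of 10 mesenchyme genes, 5 oligodendrocyte lineage genes and 7 blood and microglia genes, 0 were called, with 1, 0 and 0 at that unadjusted level and medians of -0.04, -0.05 and 0.05. The choroid plexus list stood farthest from 0, with a median of -0.31 over 4 genes, of which 0 were called and 2 had an unadjusted p under 0.05. These were CLIC6, with a male minus female difference of -0.78 (SE 0.24, adjusted p = 0.294 in limma) and every female above every male, and KL, with -0.51 (SE 0.16, adjusted p = 0.355 in limma). The order seen in CLIC6 was found in 0.736% of all genes. The median deviation of the 4 choroid plexus genes ran from -0.37 to 0.08 on the male arrays and from -0.04 to 0.39 on the female arrays. TTR, the transthyretin gene made in quantity by the choroid plexus, differed by -0.12 (SE 0.10, limma adjusted p = 0.885). AQP1, the remaining gene of this list, differed by 0.03 (SE 0.11, limma adjusted p = 0.977), at mean levels of 12.59 in males and 12.56 in females. Mean levels in males and females were 9.27 and 10.05 for CLIC6 and 8.90 and 9.40 for KL. Both genes thus lay not far above the background 95th percentile of 7.69 to 8.73. The member SOX2, at 9.66 in males and 9.76 in females, also lay not far above that background, though over it on all 10 arrays. Of 7 eye genes 0 were called, with a median of -0.04, and the pigment cell genes PMEL and TYR, at -0.57 (SE 0.24) and -0.43 (SE 0.17), had an unadjusted p under 0.05, PMEL at mean levels of 5.76 in males and 6.33 in females, below the background level. CLIC6, KL, TTR, AQP1, PMEL, TYR, ENG and TEK are named after their values were seen. The part of unequal amounts of such tissue in the members' differences was not tested.

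Of 10 vessel genes 1 was called and 3 had an unadjusted p under 0.05, with a median of 0.01. FLT1, a receptor gene for vascular endothelial growth factors, had mean levels of 11.56 in males and 11.23 in females, a difference of 0.32 (SE 0.06, adjusted p = 0.0338 in limma). The other 2 were ENG, with a difference of -0.57 (SE 0.17), and TEK, a gene on Z, with 0.21 (SE 0.08). FLT1 was the only called gene among the 137 distinct genes of all 11 lists, where 1.79% of all genes were called in either direction. In limma 14 of the 137 had an unadjusted p under 0.05, a level that 7.62% of all genes reached. The call of FLT1 was lost in 7 of 10 fits that left out 1 array and in 4 of 10 other settings. In 1 of those 4, which dropped some probe set classes, the called probe set was itself left out.

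**Figure D5:**
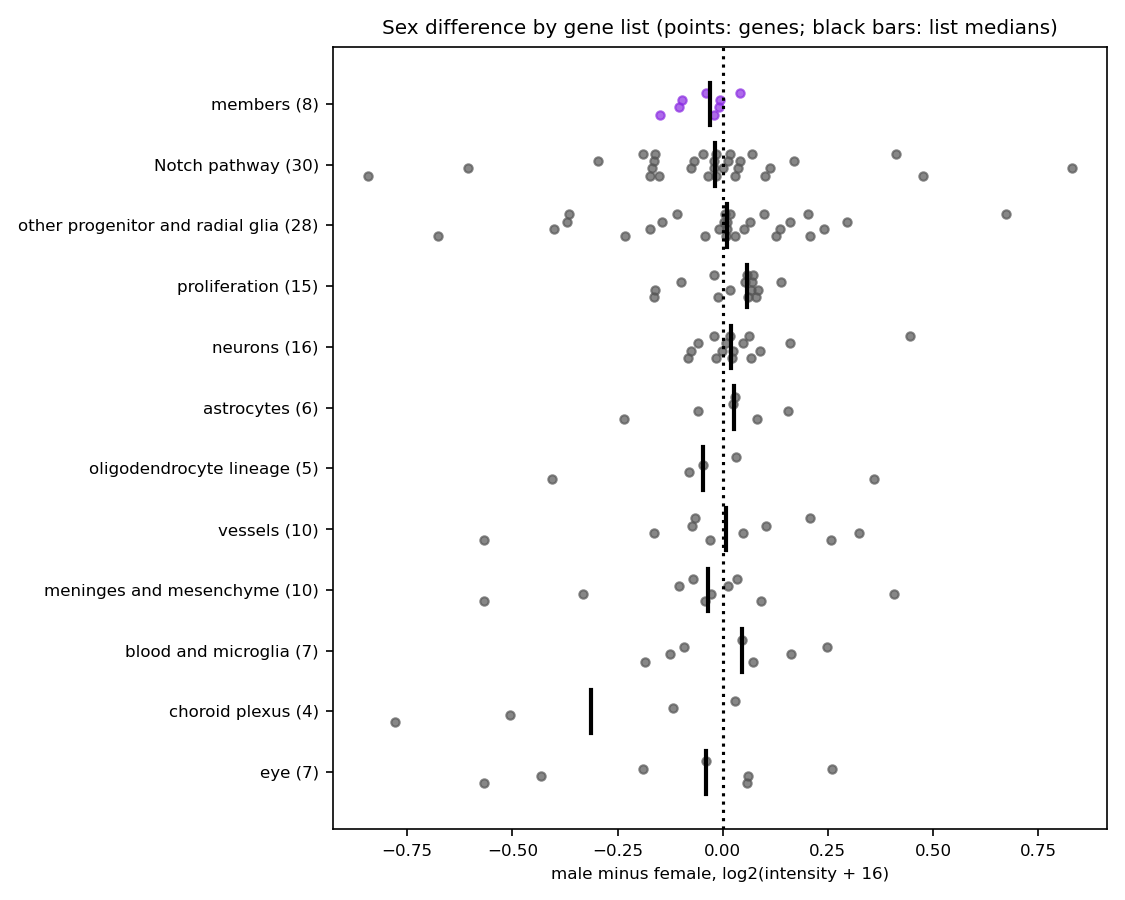
Male minus female difference of each gene, on the log2(intensity + 16) scale, for the 8 members and all 11 other gene lists, with the number of measured genes in brackets. Points are genes and black bars are list medians, which lie between -0.05 and 0.06 except for -0.31 in the choroid plexus list.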

How the data were processed

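The deposited table holds linear intensity values for 38535 probe sets on 10 arrays, and no label or header names the software behind them. Each array had a mean of 2500 once its top and bottom 2% of values were trimmed, so arrays had been scaled before deposit. The 96 control probe sets were left out. Values were taken as log2(intensity + 16), which lowers the fold change of dim genes. Of 38439 probe sets, 27168 had 1 gene symbol, 177 several and 11094 none. Symbols were updated by gene identifier through the assembly named above, and a gene was represented by its brightest probe set. Male and female arrays were compared by lmFit and eBayes of limma 3.58.1 under R 4.3.3, with Benjamini-Hochberg adjustment and a threshold of 0.05, and tested on simulated data. The number of arrays limits the precision. Named genes were all members, the 3 genes most like each, called list genes and, where a pathway or progenitor list had none, its 2 with the lowest p. The members and lists were chosen with earlier results of these data known. Titles carry letters shared by 4 males and 4 females, but nothing states pairing, and none was used. Alternatives were quantile normalization, other pseudocounts, a filter on dim probe sets, removal of some probe set classes, means per gene, other variance models, array weights, a letter block and leaving out each array. No sequences are shown.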

Additional observations from a re-analysis of the deposited data

Results flagged for a closer look

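Of 28 groups of 5 arrays examined for a single array standing apart (14 probe sets in each sex), 2 had an array whose gap to its neighbour took over 0.71 of the range, where chance gives about 1 in 20 groups. In NES, male replicate 5 lay at 12.30, below the other 4 males, with a gap of 0.769 of the male range. In a NOTCH1 probe set that was above background on 5 of 10 arrays, the third of its 5 by brightness, male replicate 5 lay at 9.05, above the other males, with a gap of 0.855 of the range.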

How the results depend on the processing

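No member probe set passed the threshold under any alternative run: 0 of 267 recomputed differences had an adjusted p under 0.05, and the lowest was 0.482. The counts of called members and of gene pairs that covary were 0 in every setting, in limma with an adjusted p and by the exact test. The sign changed in 20 of the 267. In 19 of these the difference as reported was at most 0.12 in size, and the other was the fourth NOTCH1 probe set, which had 0.28 and came to -0.21 without female replicate 4. After quantile normalization VIM differed by 0.0005 and FABP7 by 0.0007. The setting with the title letter as a replicate block leaves out male replicate 1 and female replicate 1, which lack a shared letter. Over its 8 arrays the dimmer DLL1 probe set differed by 0.021, the dimmer HES5 probe set by -0.030 and SOX3 by -0.095. Each letter holds 1 male and 1 female array, so the block does not alter these differences, which are those of the 8 arrays. The cause of the other sign changes was not tested. Leaving out 1 array at a time, differences ran from -0.20 to -0.0040 for SOX2, -0.067 to 0.17 for SOX3, -0.095 to 0.051 for the brighter and -0.19 to -0.029 for the dimmer DLL1 probe set, -0.17 to -0.020 for the brightest NOTCH1 probe set, 0.13 to 0.48, -0.86 to -0.27, -0.21 to 0.59 and -0.60 to -0.32 for the other 4 in order of falling brightness, -0.080 to 0.017 for the brighter and -0.017 to 0.074 for the dimmer HES5 probe set, -0.046 to 0.026 for VIM, -0.20 to -0.10 for NES and -0.041 to 0.017 for FABP7. The correlation of NOTCH1 with NES ran from -0.80 to -0.52 with 1 array left out, and was -0.22 with means per gene and -0.39 without centring within sex. With 1 array left out, that of the DLL1 probe sets ran from -0.83 to -0.23, that of the HES5 probe sets from 0.54 to 0.77, and the median r of VIM with mesenchyme genes, an alternative chosen after seeing the data, from 0.59 to 0.72, and it was 0.54 after quantile normalization. The 1 called gene of the other lists, FLT1, became 0 without the _s_at, _x_at and _a_at probe sets, with means per gene, with limma-trend and robust eBayes and with the replicate block, and the count ran from 0 to 1 when 1 array was left out. Of the 10 such settings, those that left out male replicate 1, female replicate 2 and female replicate 5 kept a count of 1, and each of the other 7 gave 0. A letter block of the correlations was not run, since 4 letters leave too few independent values. Arrays of both sexes with the same title letter had correlations of their deviations from the sex means between -0.01 and 0.12, and 2 of 4 males correlated best with their own letter, so the letter is not shown to pair samples. VIM and NES have no value without the _a_at probe sets, and the called FLT1 probe set is absent from that setting too.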
